A study of Mus musculus with 13 samples.

Results

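The mouse mitochondrial chromosome (MT) carries 37 genes, and the deposited count table lists each of them among 55357 genes. They were taken by chromosome name alone: 13 genes code for proteins of the respiratory chain and ATP synthase, 2 for the ribosomal RNAs (rRNAs) of the mitochondrial ribosome and 22 for transfer RNAs (tRNAs). RNA was taken from brown adipose tissue of mice, a depot whose fat cells make heat through the uncoupling protein Ucp1. The tested genotype is labelled Stim1/2_Adp-Cre, with Stim1 and Stim2 floxed and Cre driven by the adiponectin promoter, which is active in adipocytes (KO). The control genotype is labelled Stim1/2_fl/fl and carries the floxed alleles, so both genotypes share them. Stim1 and Stim2 are calcium sensors of the endoplasmic reticulum. Mice were held for 6 hours at 4 °C (cold) or were kept at room temperature (RT), which gave 4 KO cold, 4 control cold, 3 KO RT and 2 control RT libraries.

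The mitochondrial genome is a small circle transcribed from both strands into long precursor RNAs that cover many genes. The tRNA genes sit between most rRNA and protein genes, and their excision by nuclear-encoded nucleases frees the RNAs on either side. The mature RNAs are then modified, given short poly(A) tails or the CCA end of tRNAs, and degraded inside the organelle. In brown fat this genome supplies core subunits of the respiratory chain whose proton gradient Ucp1 dissipates as heat. By the GENCODE M21 annotation (GRCm38), 28 of the genes lie on the strand labelled plus and are called heavy-strand genes here after their template, including 12 protein, 2 rRNA and 14 tRNA genes. The other 9, mt-Nd6 and 8 tRNA genes, lie on the opposite strand and are called light-strand genes.

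The tRNA genes that turned out lower in KO cold than in control cold are shown as DNA, 5′ to 3′ on their own strand, since the results turn on these annotated genes. The sequences are GENCODE M21 transcripts of build GRCm38, matched by gene symbol, and capitals mark the anticodon that a search for the anticodon stem found. The first pair lies on the heavy strand, on either side of mt-Rnr2, and the other 4 lie on the light strand.
mt-Tv (valine, heavy strand): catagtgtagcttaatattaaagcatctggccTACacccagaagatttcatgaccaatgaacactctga
mt-Tl1 (leucine, heavy strand): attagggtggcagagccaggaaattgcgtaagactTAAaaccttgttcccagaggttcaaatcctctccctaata
mt-Tq (glutamine, light strand): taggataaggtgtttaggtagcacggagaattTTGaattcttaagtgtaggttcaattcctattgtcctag
mt-Ta (alanine, light strand): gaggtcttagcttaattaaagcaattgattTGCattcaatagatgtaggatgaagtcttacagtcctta
mt-Tc (cysteine, light strand): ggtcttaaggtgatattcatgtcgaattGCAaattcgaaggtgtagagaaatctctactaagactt
mt-Tp (proline, light strand): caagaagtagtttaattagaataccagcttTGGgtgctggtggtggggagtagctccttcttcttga

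Libraries were made with a 3′ mRNA kit that primes on poly(A) and reads a tag near it, and they held 1570684 to 2016178 counts each. A tRNA or rRNA count in such a library is therefore a count of tags primed on or near that RNA, not a measure of all its molecules. Stim1 was at 78.8 to 108 CPM (counts set to one common library size) in KO cold against 114 to 134 in control cold, and at 62 to 86.1 in KO RT against 126 to 150 in control RT. Stim2 was at 13.5 to 29.7 CPM in KO cold against 31.1 to 54.5 in control cold, and at 21 to 25.2 in KO RT against 29 to 40.4 in control RT, so both were lower in KO and neither was absent. The 10 brown adipocyte markers were detected in every group, with a summed level of 23200 to 24900 CPM in KO cold, 24800 to 29600 in control cold, 17600 to 19800 in KO RT and 17800 to 19800 in control RT. The summed level of 12 skeletal muscle genes ran from 1.22 to 353 CPM in KO cold, 2.47 to 265 in control cold, 98.2 to 1640 in KO RT and 26.5 to 2580 in control RT. Whether each library of a group stands for its own animal is not in the labels, so a p-value here covers the spread between libraries, which may be partly technical. In bulk tissue, fewer cells of a type and less RNA per cell cannot be told apart.

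The 37 genes together held 10.1% to 11.5% of a library's counts in KO cold, 10.6% to 13.4% in control cold, 9.72% to 10.6% in KO RT and 9.43% to 11% in control RT. The protein genes held 7.45% to 7.68% in KO cold and 7.17% to 8.28% in control cold, and 6.76% to 7.24% in KO RT and 6.47% to 7.43% in control RT. The KO cold libraries lay inside the control cold range for this class. The rRNA genes held 2.56% to 3.71% in KO cold and 3.34% to 4.97% in control cold, and 2.91% to 3.24% in KO RT and 2.9% to 3.54% in control RT. The tRNA genes held 0.0621% to 0.0868% in KO cold and 0.0792% to 0.156% in control cold, and 0.0562% to 0.0701% in KO RT and 0.0567% to 0.0897% in control RT. In both RNA classes the cold groups overlapped through 1 control cold library, number 1, which was the lowest of its group. These shares are descriptions, with no test over a sum of genes.

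**Figure D1:**
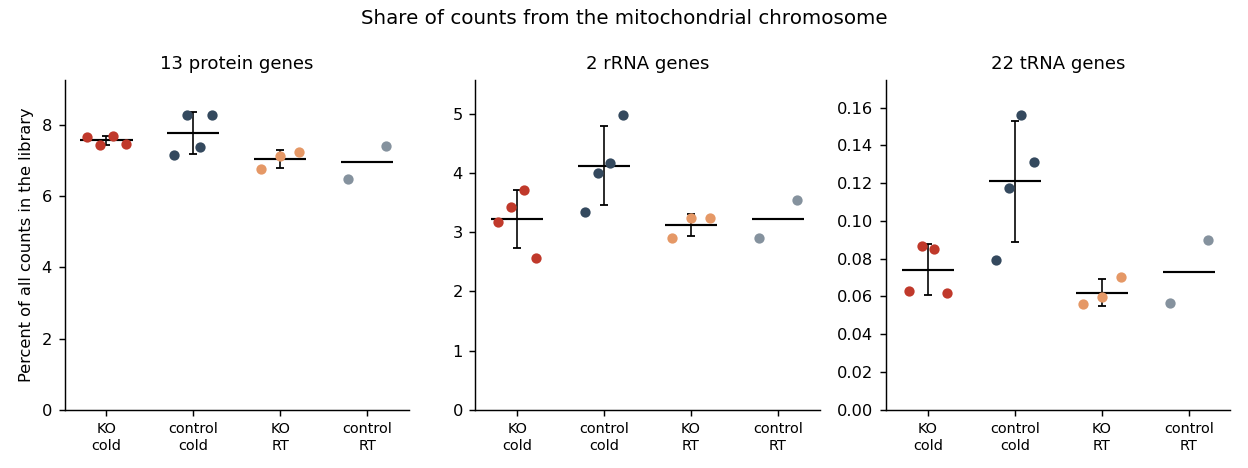
Percent of each library's counts (y axis) from the protein, rRNA and tRNA genes of the mitochondrial chromosome, by group (x axis). Points are libraries, lines are group means and error bars are SD in groups of 3 or more; the tRNA share reached 0.156% in control cold and 0.0868% in KO cold, while the protein share of KO cold lay between 7.45% and 7.68%, within the range of control cold.

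Of the 37 genes, 20 held enough counts to be among the 11073 genes tested: 8 protein, both rRNA and 10 tRNA genes. The remaining 17 were too low. mt-Tf, mt-Tn, mt-Ts1 and mt-Tk had no count in any library, which allows a level of up to 0.13 CPM at 3 counts over 23044613. Another 8 tRNA genes had 1 to 41 counts over the 13 libraries together, from mt-Th with 1 to mt-Te with 41. The last 5 were the protein genes mt-Co2, mt-Atp6, mt-Co3, mt-Atp8 and mt-Nd4l, with 26, 34, 9, 16 and 24 counts in all. mt-Atp6, the proton channel subunit of ATP synthase, had 1, 4, 4 and 4 counts in KO cold, 3, 4, 0 and 2 in control cold, 2, 3 and 1 in KO RT and 3 and 3 in control RT.

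The near absence of mt-Co2, mt-Atp6 and mt-Co3 touches how far any level of these genes can be read. All 3 have a copy on chromosome 1 that is identical over its annotated length. The sequence of a tag wholly within that length cannot tell the gene from its copy. Over the length of the annotated copy, mt-Co2 matched Gm28661 in 681 of 681 bases, mt-Atp6 matched Gm10925 in 678 of 678 and mt-Co3 matched Gm28437 in 783 of 783. The last 60 bases of the aligned stretch, where a 3′ tag could come from, show the identity for mt-Co2, with no base in capitals because none differs.
mt-Co2: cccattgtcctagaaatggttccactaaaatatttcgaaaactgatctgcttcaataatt
Gm28661: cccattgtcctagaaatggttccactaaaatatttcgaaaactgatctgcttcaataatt
The copies held more counts than the mitochondrial genes, with 271 to 413 per library for Gm28661, 252 to 440 for Gm10925 and 352 to 574 for Gm28437. How tags with several matches were treated is not given in the sources used here. Copies also exist for part of mt-Co1 (Gm29216, 482 of 483 bases), mt-Nd3 (Gm28438, 344 of 345) and the first 876 bases of mt-Nd4 (Gm28439). Values of mt-Co1, mt-Nd3 and mt-Nd4 are therefore uncertain too, although the last 502 bases of mt-Nd4 lie outside its copy.

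**Figure D2:**
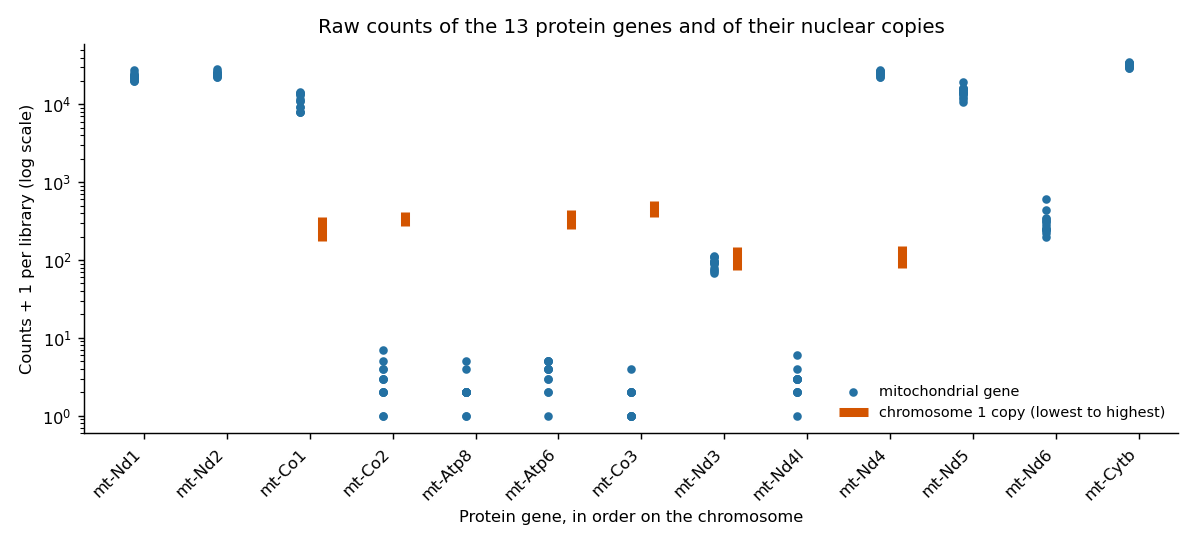
Raw counts plus 1 per library (y axis, log scale) of the 13 protein genes in their order on the chromosome (x axis), with blue points for the libraries and orange bars from the lowest to the highest count of the chromosome 1 copy. mt-Co2, mt-Atp6 and mt-Co3 lie at 6 counts or fewer while their copies hold 252 to 574. mt-Atp8 and mt-Nd4l are also near 0, and neither has a copy among the 6 examined, but other copies were not looked for.

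KO cold was set against control cold to ask how the adipocyte deletion of Stim1 and Stim2 changes the tissue during cold exposure. Of the 20 tested genes, 7 were lower in KO cold at an adjusted p under 0.05 and 0 were higher. The background was 5.93% of all 11073 tested genes called in either direction, with 3.49% lower and 2.44% higher. The 7 were 6 tRNA genes and the small rRNA gene, and none was a protein gene. The median log2 fold change was -1.03 over the tested tRNA genes, -0.47 over the rRNA genes and -0.14 over the tested protein genes, against -0.01 over all tested genes. At an unadjusted p under 0.05 the count was 12 of 20 genes, beside 2224 of all 11073.

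By position the called genes can be described as 2 sets. These sets were not planned before the calls were known and carry no test. The tested light-strand tRNA genes, mt-Tq, mt-Ta, mt-Tc and mt-Tp, were all 4 lower. The first 5 genes of the heavy strand run mt-Tf, mt-Rnr1, mt-Tv, mt-Rnr2 and mt-Tl1, and of the 4 tested there, 3 were lower. Of the 7 tested heavy-strand protein genes 0 passed, with log2 fold changes of -0.30 to 0.14. The other 4 tested heavy-strand tRNA genes, mt-Ti, mt-Tm, mt-Tw and mt-Tt, did not pass either. Of these, mt-Tt had a log2 fold change of -1.01, larger than those of mt-Rnr1 (-0.50) and mt-Rnr2 (-0.44) inside the second set. Strand use in counting is not given in the sources used here, so the count of a light-strand gene cannot be told apart from antisense RNA of the heavy-strand precursor over the same bases.

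The cysteine tRNA gene mt-Tc had the largest difference among the tested mitochondrial genes. Its level was 3.06, 8.35, 1.69 and 3.95 CPM in KO cold, against 9.21, 51.3, 47.7 and 28.9 in control cold. These levels rest on 5, 16, 3 and 7 counts in KO cold and on 16, 83, 77 and 41 counts in control cold. The cold groups did not overlap in CPM, though KO cold 2 and control cold 1 lay close together. The log2 fold change was -2.96 ± 0.54 (SE; n = 4 and 4; adjusted p = 0.00361, edgeR's quasi-likelihood test). At room temperature mt-Tc was at 6.08, 2.87 and 4.72 CPM in KO and at 2.30 and 12.7 in control, about the level of KO cold.

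The alanine tRNA gene mt-Ta, its close neighbour on the light strand, was at 10.4, 11.5, 14.6 and 11.3 CPM in KO cold and at 21.3, 22.2, 48.3 and 41.7 in control cold. Every KO cold library was below every control cold library, with a log2 fold change of -1.47 ± 0.30 (SE; adjusted p = 0.00772, edgeR). The asparagine tRNA gene mt-Tn, which lies between mt-Ta and mt-Tc on the same strand, had no count, and the tyrosine tRNA gene mt-Ty, which follows mt-Tc, had 18 counts in all. A light-strand cluster of tRNA genes therefore gave uneven counts within itself.

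The glutamine tRNA gene mt-Tq was at 74.7, 97.0, 90.0 and 97.1 CPM in KO cold and at 118, 188, 233 and 165 in control cold, again without overlap. On the log2 scale the change was -0.97 ± 0.19 (SE; adjusted p = 0.00574, edgeR). mt-Tq lies on the light strand between the heavy-strand genes mt-Ti and mt-Tm, which carry isoleucine and methionine. mt-Ti was at 97.9, 157, 157 and 94.8 CPM in KO cold and at 87.0, 110, 138 and 170 in control cold, with a log2 fold change of 0.01 ± 0.21 that did not pass (adjusted p = 0.983). mt-Tm was at 168, 167, 159 and 159 CPM in KO cold and at 165, 244, 222 and 209 in control cold, and its log2 fold change of -0.36 ± 0.12 did not pass (adjusted p = 0.0993). So 3 neighbouring tRNA genes gave 3 different values, and the gene on the other strand was the one that passed; the differences between them were not tested.

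The proline tRNA gene mt-Tp, the last gene before the control region, was at 98.5, 190, 189 and 155 CPM in KO cold and at 189, 305, 491 and 343 in control cold. Here the groups touched, since control cold 1 lay level with the highest KO cold libraries. The log2 fold change was -1.06 ± 0.26 (SE; adjusted p = 0.0214, edgeR). The call was lost without KO cold 1 (adjusted p = 0.0662), KO cold 4 (0.0546) or control cold 3 (0.0655). Its heavy-strand neighbour mt-Tt, the threonine tRNA gene, was at 159, 192, 205 and 70.5 CPM in KO cold and at 179, 312, 384 and 387 in control cold. The log2 fold change of mt-Tt, -1.01 ± 0.34, was as large as that of mt-Tp but did not pass (adjusted p = 0.0912). It passed without the filter on low counts and without control RT 1 or 2.

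mt-Tl1, the leucine tRNA gene that follows the large rRNA gene, was at 19.6, 32.9, 33.2 and 23.1 CPM in KO cold and at 35.1, 64.3, 76.8 and 72.0 in control cold. No KO cold library reached the lowest control cold library, and the log2 fold change was -1.18 ± 0.23 (SE; adjusted p = 0.00618, edgeR). mt-Tv, the valine tRNA gene between both rRNA genes, was at 7.34, 6.26, 7.31 and 7.90 CPM in KO cold and at 8.06, 23.5, 18.6 and 14.8 in control cold. Its log2 fold change was -1.16 ± 0.33 (SE; adjusted p = 0.0443, edgeR). This is 12 to 14 counts per KO cold library, and the call was lost in 9 of the 13 fits with 1 library left out: any of the 4 KO cold libraries, control cold 2, 3 or 4, or KO RT 1 or 2 (adjusted p 0.0556 to 0.145). It was also lost with upper-quartile scaling (0.0544), with the replicate numbers as a block (0.0569) and when libraries were scaled to mitochondrial protein-gene counts (0.0697).

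The 12S rRNA gene mt-Rnr1, RNA of the small mitochondrial ribosomal subunit, was at 10720, 11050, 12270 and 8419 CPM in KO cold and at 11640, 14770, 15180 and 18600 in control cold. The groups overlapped through control cold 1, and the log2 fold change was -0.50 ± 0.14 (SE; adjusted p = 0.0369, edgeR). The call was lost without KO cold 1, 2 or 4, control cold 2, 3 or 4, or KO RT 2 (adjusted p 0.0554 to 0.113), with upper-quartile scaling (0.0624), with the replicate block (0.0541) and in a fit of the compared groups alone (0.0506). The 16S rRNA gene mt-Rnr2, RNA of the large subunit, was at 21810, 23230, 25570 and 17560 CPM in KO cold and at 22980, 30490, 29500 and 36550 in control cold. Its log2 fold change of -0.44 ± 0.13 missed the threshold (adjusted p = 0.0642), and it passed without control cold 1 (0.02) or without the filter on low counts (0.000238).

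Of the protein genes, mt-Nd6 came closest to the threshold. It is the only one on the light strand and codes for a membrane subunit of complex I. It was at 134, 181, 158 and 141 CPM in KO cold and at 175, 271, 377 and 181 in control cold, which overlap slightly. The log2 fold change was -0.71 ± 0.21 (SE; adjusted p = 0.0512, edgeR). It passed without control cold 1 (adjusted p = 0.0246) or 4 (0.0262), with relative log expression scaling (0.0486), without the filter (2.56e-05), with the block (0.0357) and in DESeq2 (0.023).

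The other tested protein genes did not pass in the same comparison, with log2 fold changes of -0.30 to 0.14. mt-Nd5, a complex I subunit next to mt-Nd6 on the opposite strand, was at 8594, 8292, 9007 and 8031 CPM in KO cold and at 8632, 12150, 9599 and 11510 in control cold, with a log2 fold change of -0.30 ± 0.11 (adjusted p = 0.114). mt-Co1, the catalytic subunit of complex IV, was at 6730, 7272, 7651 and 6245 CPM in KO cold and at 6697, 8746, 8279 and 10120 in control cold (-0.28 ± 0.13, adjusted p = 0.259). The cold groups overlapped for both genes. For mt-Nd5, KO cold 1, 2 and 4 lay below the lowest control cold library, and for mt-Co1 only KO cold 4 did.

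mt-Nd1, the complex I subunit encoded just after mt-Tl1, was at 13560, 13160, 13340 and 13260 CPM in KO cold and at 12840, 17170, 12530 and 15770 in control cold (-0.13 ± 0.10, adjusted p = 0.525). mt-Nd2, of the same complex, was at 14440, 13980, 14410 and 13940 CPM in KO cold and at 13730, 17510, 14680 and 17210 in control cold (-0.15 ± 0.09, adjusted p = 0.367). mt-Cytb, the complex III cytochrome, was at 19440, 18010, 18940 and 19050 CPM in KO cold and at 18220, 21850, 19330 and 21090 in control cold (-0.09 ± 0.08, adjusted p = 0.574). For these 3 genes the KO cold libraries were tightly grouped inside or near the low end of a wider control cold range. mt-Nd3 and mt-Nd4, both of complex I, had log2 fold changes of 0.14 ± 0.15 and -0.01 ± 0.08, with 49.0 to 66.7 and 13730 to 15810 CPM in KO cold against 44.6 to 68.0 and 14000 to 15880 in control cold.

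**Figure D3:**
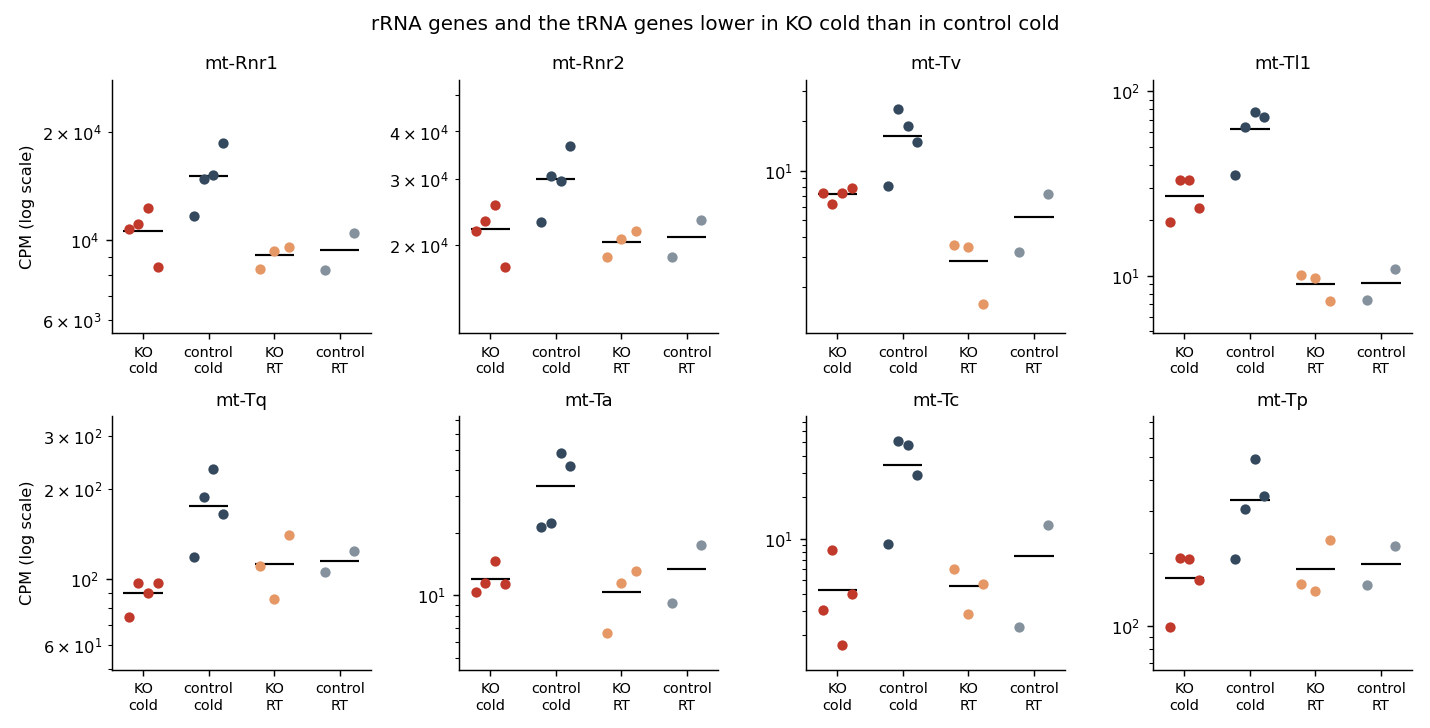
CPM (y axis, log scale) of both rRNA genes and of the 6 tRNA genes lower in KO cold than in control cold, by group (x axis); points are libraries and lines are group means. For mt-Tv, mt-Tl1, mt-Tq, mt-Ta and mt-Tc no KO cold library reaches the lowest control cold library, which is control cold 1 in each panel; the mt-Tc panel runs from 1.69 to 51.3 CPM.

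Groups that did not overlap gave a second description of the same comparison. Of the 20 tested genes, 5 were lower in every KO cold library than in every control cold library, namely mt-Tv, mt-Tl1, mt-Tq, mt-Ta and mt-Tc, and 0 were higher in every one. The background was 6.53% of tested genes lower and 6.28% higher. Of the 7 called genes, mt-Tc, mt-Ta, mt-Tq and mt-Tl1 stayed called in each of the 13 fits with 1 library left out. Without KO cold 1, KO cold 4 or control cold 3 these were the 4 genes called, and without control cold 1 the number called was 11.

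The control cold libraries differed among themselves in the same genes. For each of the 20 tested genes the highest library of all 13 was a control cold one, and for 14 of them the 3 highest were control cold 2, 3 and 4. Light-strand tRNA genes gave 2.38 to 4.15 counts per 1000 protein-gene counts in KO cold and 4.62 to 10.4 in control cold, with no overlap, and 3.62 to 5.51 in KO RT and 4.44 to 5.22 in control RT. Heavy-strand tRNA genes gave 4.77 to 7.51 in KO cold and 6.43 to 10.7 in control cold, and 3.93 to 4.75 in KO RT and 4.31 to 6.86 in control RT. The rRNA genes gave 34.2 to 48.3 counts per 100 protein-gene counts in KO cold, 46.6 to 60.1 in control cold, 43 to 45.2 in KO RT and 44.8 to 47.6 in control RT. Between the cold groups the light-strand ratio was the one without overlap, and the lowest control cold library in it, number 1, lay within the range of the RT libraries.

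Markers of other cells were read beside this comparison. In KO cold against control cold, 0 of 10 brown adipocyte, 0 of 12 skeletal muscle, 0 of 7 macrophage, 0 of 6 endothelial, 0 of 5 fibroblast, 0 of 5 erythrocyte and 0 of 4 nerve markers tested passed, and 1 of 4 white adipocyte markers was lower. The summed level of the white adipocyte markers was 134 to 207 CPM in KO cold and 221 to 476 in control cold, although the median log2 fold change of the 4 tested ones was 0.29. Macrophage markers reached 138 CPM in KO cold and 280 in control cold, and fibroblast markers spanned 455 to 524 in KO cold and 418 to 1160 in control cold. Endothelial markers spanned 937 to 1080 CPM in KO cold and 660 to 1180 in control cold, erythrocyte markers 1430 to 3300 in KO cold and 1330 to 2840 in control cold, and nerve markers 178 to 198 in KO cold and 140 to 281 in control cold. Lymphocyte markers were at 2.26 CPM or less in KO cold and at 1.24 or less in control cold, with Cd79a at 0 in both. The part of these cells in the mitochondrial values was not tested.

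**Figure D4:**
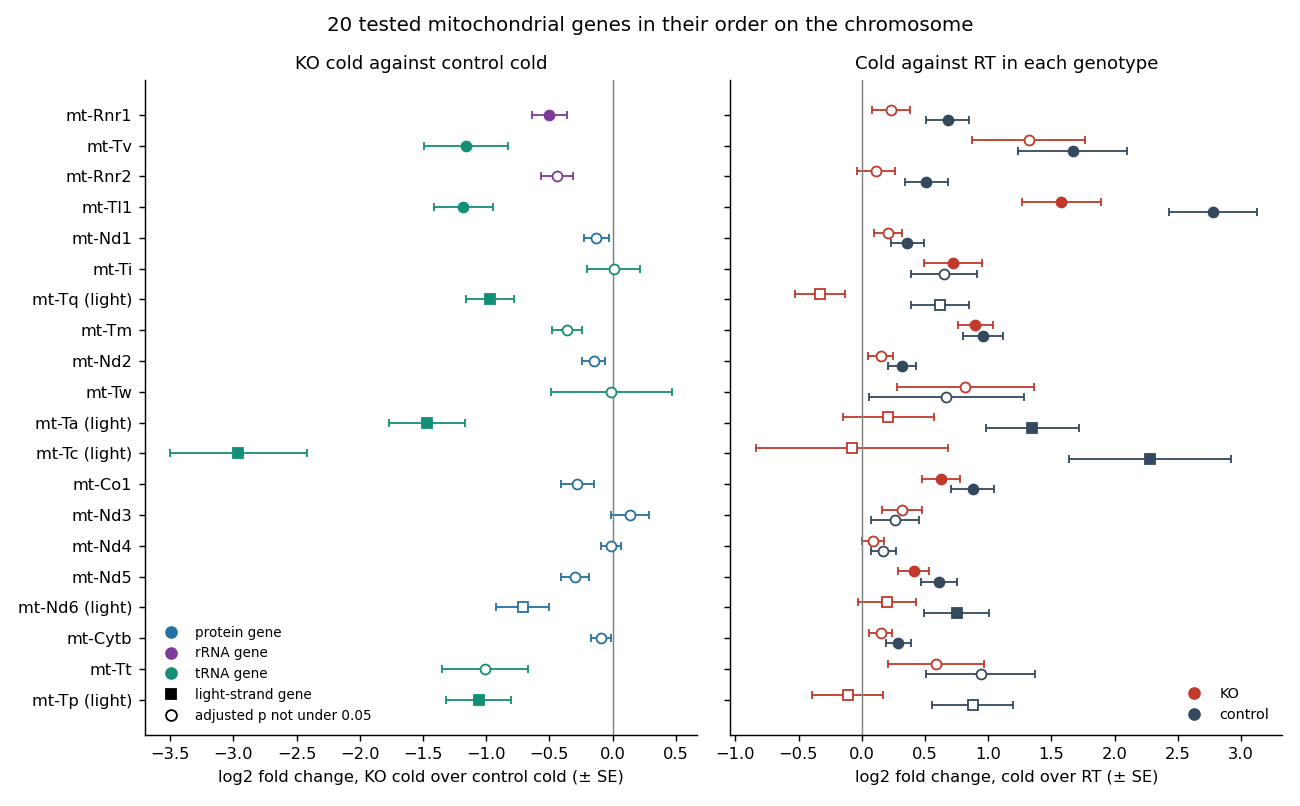
Log2 fold changes ± SE (x axes) of the 20 tested genes in their order on the chromosome (y axis), left for KO cold over control cold and right for cold over RT in KO (red) and control (dark). Squares are light-strand genes and filled symbols passed an adjusted p of 0.05; on the left the light-strand tRNA genes lie at -2.96 to -0.97 and the heavy-strand protein genes at -0.30 to 0.14.

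At room temperature KO was set against control to ask whether the genotypes differ without the cold stimulus. edgeR called 0 of the 20 tested genes, and 0 of them had an unadjusted p under 0.05. The background was 0% of 11073 genes called, with 346 at an unadjusted p under 0.05, and DESeq2 called 0 mitochondrial genes. In 0 of the 20 genes did the genotypes separate without overlap in either direction, where the background was 8.68% higher and 7.96% lower. Log2 fold changes ran from -0.81 ± 0.56 (mt-Tv) to 0.08 ± 0.20 (mt-Nd3), with a median of -0.05. mt-Rnr1 was at 8304, 9354 and 9556 CPM in KO RT and at 8276 and 10460 in control RT, and mt-Rnr2 was at 18610, 20770 and 21790 in KO RT and at 18620 and 23350 in control RT. With 3 KO RT and 2 control RT libraries, a missed threshold does not show that the genotypes were alike.

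The response of the control genotype to cold was measured by control cold against control RT, which shares its control cold libraries with the comparison above. Of the 20 tested genes 13 were higher in cold and 0 were lower, beside a background of 12.7% of all tested genes higher, 12.6% lower and 25.2% called in either direction. They were both rRNA genes, 6 of 8 protein genes and 5 of 10 tRNA genes. Over the 20 genes the median log2 fold change was 0.68, and over all tested genes it was -0.02. In 11 of 20 genes every control cold library was above both control RT libraries and in 0 every one was below, where the background was 19.8% above and 20.6% below. Of the markers in the same contrast, 7 of 12 skeletal muscle genes were lower and 3 of 10 brown adipocyte genes were higher. Of 4 white adipocyte and of 6 endothelial genes, 1 each was higher and 1 each lower, and the part of these cells in the mitochondrial values was not tested.

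The leucine tRNA gene mt-Tl1 had the largest fold change of the 20 genes in this fit, though without control RT 2 that of mt-Tc was larger (3.87). Beside its control cold values of 35.1 to 76.8 CPM it was at 7.36 and 10.9 in control RT, a log2 fold change of 2.78 ± 0.35 (adjusted p = 5.12e-05, edgeR). The methionine tRNA gene mt-Tm was at 165 to 244 CPM in control cold and at 95.2 and 121 in control RT (0.96 ± 0.16, adjusted p = 0.000521). These 2 genes stayed called in every fit with 1 library left out. Without control RT 1 they were the only mitochondrial genes called, and the count of calls ran from 2 to 16 over the 13 such fits.

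The other tRNA genes that passed had few counts at room temperature. mt-Tv was at 8.06 to 23.5 CPM in control cold and at 3.22 and 7.23 in control RT (1.67 ± 0.43, adjusted p = 0.0101). Without control RT 1 its log2 fold change was 1.15 (0.174) and without control RT 2 it was 2.32 (0.0091). mt-Ta was at 21.3 to 48.3 CPM in control cold and at 9.2 and 17.5 in control RT (1.35 ± 0.37, adjusted p = 0.0141; 0.211 without control RT 1). mt-Tc was at 9.21 to 51.3 CPM in control cold and at 2.30 and 12.7 in control RT, so the groups overlapped (2.28 ± 0.64, adjusted p = 0.0159). Its log2 fold change was 1.43 without control RT 1 (0.21) and 3.87 without control RT 2 (0.00682). In a fit of the compared groups alone, mt-Ta (0.051) and mt-Tc (0.0511) missed the threshold.

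Both rRNA genes rose with cold in control. mt-Rnr1 was at 11640 to 18600 CPM in control cold against 8276 and 10460 in control RT (0.68 ± 0.17, adjusted p = 0.00819), and this was lost without control RT 1 (0.135) or scaled to mitochondrial protein counts (0.0664). mt-Rnr2 was at 22980 to 36550 CPM in control cold against 18620 and 23350 in control RT, which overlap (0.51 ± 0.17, adjusted p = 0.0351). Its call was lost without control cold 2 or 4, KO RT 2 or control RT 1 (0.0512 to 0.309), with upper-quartile scaling (0.0798), with the block (0.0903), with the compared groups alone (0.0959) and scaled to mitochondrial protein counts (0.386).

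Among protein genes in the same contrast, mt-Co1 was at 6697 to 10120 CPM in control cold and at 3669 and 5506 in control RT (0.88 ± 0.17, adjusted p = 0.00156). mt-Nd5 was at 8632 to 12150 CPM in control cold and at 6246 and 7482 in control RT (0.61 ± 0.14, adjusted p = 0.00426). Neither group pair overlapped, but without control RT 1 both missed the threshold (0.0502 for mt-Co1 and 0.0906 for mt-Nd5). mt-Nd6 was at 175 to 377 CPM in control cold and at 153 and 146 in control RT (0.75 ± 0.26, adjusted p = 0.0433). Its call was lost without KO cold 1 or 3, control cold 2 or 3, KO RT 1 or either control RT library (0.0515 to 0.174), with upper-quartile scaling (0.072), with the block (0.0581), with the compared groups alone (0.106) and scaled to mitochondrial protein counts (0.282).

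The remaining 3 calls were small and just under the threshold. mt-Nd1 was at 10540 and 12230 CPM in control RT (0.36 ± 0.13, adjusted p = 0.048), mt-Nd2 at 11730 and 13630 (0.32 ± 0.11, 0.0476) and mt-Cytb at 15340 and 17670 (0.29 ± 0.10, 0.0485). mt-Nd1 and mt-Nd2 lost the call in each fit with 1 library left out except those without control cold 1, control cold 3 or control RT 2 (0.0568 to 0.356 and 0.0578 to 0.384). mt-Cytb lost it in each except those without control cold 1 or control RT 2 (0.057 to 0.4). Upper-quartile scaling (0.14, 0.162 and 0.185 for mt-Nd1, mt-Nd2 and mt-Cytb) and the block (0.1, 0.123 and 0.149) ended the calls as well. So did relative log expression scaling (0.0506, 0.0501 and 0.0511), scaling on genes outside the mitochondrial chromosome (0.0548, 0.0551 and 0.0582) and the compared groups alone (0.188, 0.205 and 0.216), again for mt-Nd1, mt-Nd2 and mt-Cytb. DESeq2 ended that of mt-Nd1 (0.0525) and the unfiltered fit that of mt-Cytb (0.0639), and scaling to mitochondrial protein counts turned them to -0.02, -0.06 and -0.08. mt-Nd3 (0.26 ± 0.19) and mt-Nd4 (0.17 ± 0.10) did not pass.

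In KO, cold was set against RT over 4 and 3 libraries. Of the 20 tested genes 5 were higher in cold and 0 were lower, beside 9.43% of all tested genes higher, 9.45% lower and 18.9% called in either direction. These 5 were the tRNA genes mt-Tl1, mt-Tm and mt-Ti and the protein genes mt-Co1 and mt-Nd5. The 20 genes had a median log2 fold change of 0.22, against -0.01 over all tested genes. In 9 of 20 genes every KO cold library was above every KO RT library and in 0 every one was below, with a background of 15.8% above and 16.4% below. Of the markers, 2 of 12 skeletal muscle, 4 of 5 fibroblast and 1 of 4 white adipocyte genes were lower, and 3 of 10 brown adipocyte and 1 of 6 endothelial genes were higher, and their part was not tested here either.

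mt-Tm was at 159 to 168 CPM in KO cold and at 80.5, 95.2 and 87.1 in KO RT (0.90 ± 0.14, adjusted p = 0.000372). mt-Tl1 was at 19.6 to 33.2 CPM in KO cold and at 10.1, 9.76 and 7.35 in KO RT (1.58 ± 0.31, adjusted p = 0.00208). mt-Co1 was at 6245 to 7651 CPM in KO cold and at 4026, 4648 and 4855 in KO RT (0.63 ± 0.15, adjusted p = 0.00655). These 3 genes rose without overlap and stayed called in every fit with 1 library left out.

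mt-Nd5 was at 8031 to 9007 CPM in KO cold and at 5967, 6143 and 7103 in KO RT (0.41 ± 0.12, adjusted p = 0.0246). Its call was lost without KO cold 1 or 3 or KO RT 1 or 2 (0.0514 to 0.119), with the block (0.0502) and scaled to mitochondrial protein counts (0.073). mt-Ti was at 94.8 to 157 CPM in KO cold and at 66.9, 86.6 and 78.2 in KO RT (0.72 ± 0.23, adjusted p = 0.0372). Its call was lost without KO cold 2 or 3 or any KO RT library (0.0572 to 0.147) and scaled to mitochondrial protein counts (0.105). In control the log2 fold change of mt-Ti, at 70.8 and 90.4 CPM in control RT, was 0.65 ± 0.26 and did not pass (adjusted p = 0.0814), except without the filter or without control cold 1.

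The light-strand tRNA genes did not pass in KO. mt-Tq was at 74.7 to 97.1 CPM in KO cold and at 111, 85.5 and 141 in KO RT (-0.33 ± 0.20, adjusted p = 0.287), and at 118 to 233 in control cold and 106 and 124 in control RT (0.62 ± 0.23, adjusted p = 0.0597). mt-Ta was at 10.4 to 14.6 CPM in KO cold and at 6.59, 11.5 and 13.1 in KO RT (0.21 ± 0.36). mt-Tp was at 98.5 to 190 CPM in KO cold and at 149, 139 and 226 in KO RT (-0.11 ± 0.28), and at 189 to 491 in control cold and 147 and 213 in control RT (0.88 ± 0.32, adjusted p = 0.0534). For cold in control, mt-Tp passed without the filter, in DESeq2, and without KO cold 1, control cold 1 or KO RT 3, and mt-Tq passed without the filter or without control cold 1. KO cold and KO RT libraries overlapped for all 3 genes, and mt-Tc had a log2 fold change of -0.08 ± 0.76.

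Among the heavy-strand genes, mt-Rnr1 was 0.23 ± 0.15 (adjusted p = 0.306) and mt-Rnr2 0.11 ± 0.15 (0.633) on the log2 scale in KO cold against KO RT. mt-Tv was at 3.55, 3.44 and 1.58 CPM in KO RT, and its log2 fold change of 1.32 ± 0.45 just missed the threshold (adjusted p = 0.0527). It passed without the filter, with the compared groups alone, and without control cold 1 or 2 or control RT 1 or 2. mt-Tt was at 82.1, 118 and 112 CPM in KO RT and at 76.8 and 254 in control RT, with log2 fold changes for cold of 0.59 ± 0.38 in KO and 0.94 ± 0.43 in control, neither of which passed, except without the filter in both and without control RT 2 in control. mt-Tw, the tryptophan tRNA gene, had 10, 5, 14 and 9 counts in KO cold, 4, 10, 5 and 15 in control cold, 5, 3 and 9 in KO RT and 9 and 4 in control RT, too few to separate the groups. mt-Nd6, on the light strand, was at 123, 111 and 165 CPM in KO RT (0.20 ± 0.23, adjusted p = 0.571).

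mt-Nd1 was at 10680, 11600 and 12350 CPM in KO RT, mt-Nd2 at 12140, 12840 and 13270 and mt-Cytb at 16240, 16970 and 17940. Their log2 fold changes for cold in KO were 0.21 ± 0.11, 0.15 ± 0.10 and 0.15 ± 0.09, and none passed. The ratio of both rRNA genes separated the temperatures in both genotypes: mt-Rnr1 had 47.6 to 49.2 counts per 100 of mt-Rnr2 in KO cold and 43.9 to 45 in KO RT, and 48.4 to 51.5 in control cold and 44.4 to 44.8 in control RT. This ratio was looked at after the values were seen and has no test.

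Whether the cold responses of the genotypes differ was tested directly as the KO response minus the control response. edgeR called 0 of the 20 genes and DESeq2 0, and 5 genes had an unadjusted p under 0.05, beside 913 of all 11073. The background was 0.0181% of tested genes called, 2 of 11073. The 5 genes were tRNA genes: mt-Tq differed by -0.94 ± 0.31 (unadjusted p = 0.00704, adjusted p = 0.415), mt-Tl1 by -1.20 ± 0.48, mt-Tp by -1 ± 0.42, mt-Tc by -2.36 ± 1.01 and mt-Ta by -1.14 ± 0.52. They include the 4 tested light-strand tRNA genes. Without the filter on low counts mt-Tq, mt-Tc and mt-Tp passed, but that fit called 133 of 22904 genes in this contrast, against 2 of 11073 with the filter. The calls made in one genotype and missed in the other are therefore not shown to differ between genotypes.

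The nuclear genes that act on these RNAs were read from lists of known roles. In KO cold against control cold, 0 of 20 tested genes of mtDNA transcription and replication passed (median log2 fold change 0.31), as did 0 of 22 of tRNA maturation (0.15) and 0 of 9 of rRNA modification (0.49). Of 24 genes of RNA processing and stability, 1 was higher and 3 were lower (median -0.04). Of 22 genes of tRNA charging, 1 was higher and 1 was lower (median 0.11). Beside them stands the background of 5.93% of all tested genes. The lists were drawn up with earlier results of these data known and carry no test of their own.

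Cars2, which charges the mitochondrial cysteine tRNA, was at 165, 213, 194 and 104 CPM in KO cold, 418, 428, 433 and 871 in control cold, 24.8, 62.5 and 27.8 in KO RT and 32.2 and 33.1 in control RT. The cold groups did not overlap, and both lay above the RT libraries. Its log2 fold change was -1.67 ± 0.28 in KO cold against control cold (adjusted p = 0.00197), 4.04 ± 0.43 for cold in control (1.24e-05) and 2.15 ± 0.34 for cold in KO (0.000432). The tRNA it charges, mt-Tc, had the lowest log2 fold change among the tested mitochondrial genes in the first of these contrasts. For cold, mt-Tc was at 2.28 ± 0.64 in control but at -0.08 ± 0.76 in KO, where Cars2 was higher. A link between the levels of Cars2 and mt-Tc was not tested. Hars2, which charges the mitochondrial histidine tRNA, was at 54.5, 53.7, 63.0 and 66.6 CPM in KO cold and at 38.0, 44.5, 41.5 and 37.4 in control cold (0.56 ± 0.13, adjusted p = 0.0164; 0.0505 without KO cold 3 and 0.0537 without KO cold 4). The histidine tRNA gene mt-Th had 1 count in all.

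Among the processing genes, the oligoribonuclease Rexo2, which clears short RNAs in mitochondria, was at 151, 149, 145 and 165 CPM in KO cold and at 224, 200, 227 and 225 in control cold (-0.52 ± 0.10, adjusted p = 0.00466). Pde12, which removes poly(A) tails from mitochondrial RNAs, was at 30, 25, 23.1 and 27.7 CPM in KO cold and at 42.6, 40.8, 45.8 and 40.9 in control cold (-0.69 ± 0.14, adjusted p = 0.00638). Neither gene's cold groups overlapped, but scaled to mitochondrial protein counts both missed the threshold (0.0817 for Rexo2 and 0.0704 for Pde12). Fastkd5, needed for precursors that no tRNA separates, was at 34.9, 36.5, 36 and 29.9 CPM in KO cold and at 42.6, 58.1, 45.2 and 55.8 in control cold (-0.55 ± 0.14, adjusted p = 0.0308). That call was lost without any of the KO cold libraries or control cold 2 or 4 (0.0604 to 0.0918), with upper-quartile scaling (0.0522), without the filter (0.0688), with the block (0.0533), with the compared groups alone (0.0556), in DESeq2 (0.052) and scaled to mitochondrial protein counts (0.127). Hsd17b10, a subunit of the nuclease that cuts tRNA 5′ ends, was at 146, 128, 126 and 179 CPM in KO cold and at 83.5, 104, 92.3 and 102 in control cold (0.60 ± 0.14, adjusted p = 0.0216), and lost its call without KO cold 1 (0.0521) or 4 (0.073) or control cold 1 (0.0611) or 3 (0.0509).

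**Figure D5:**
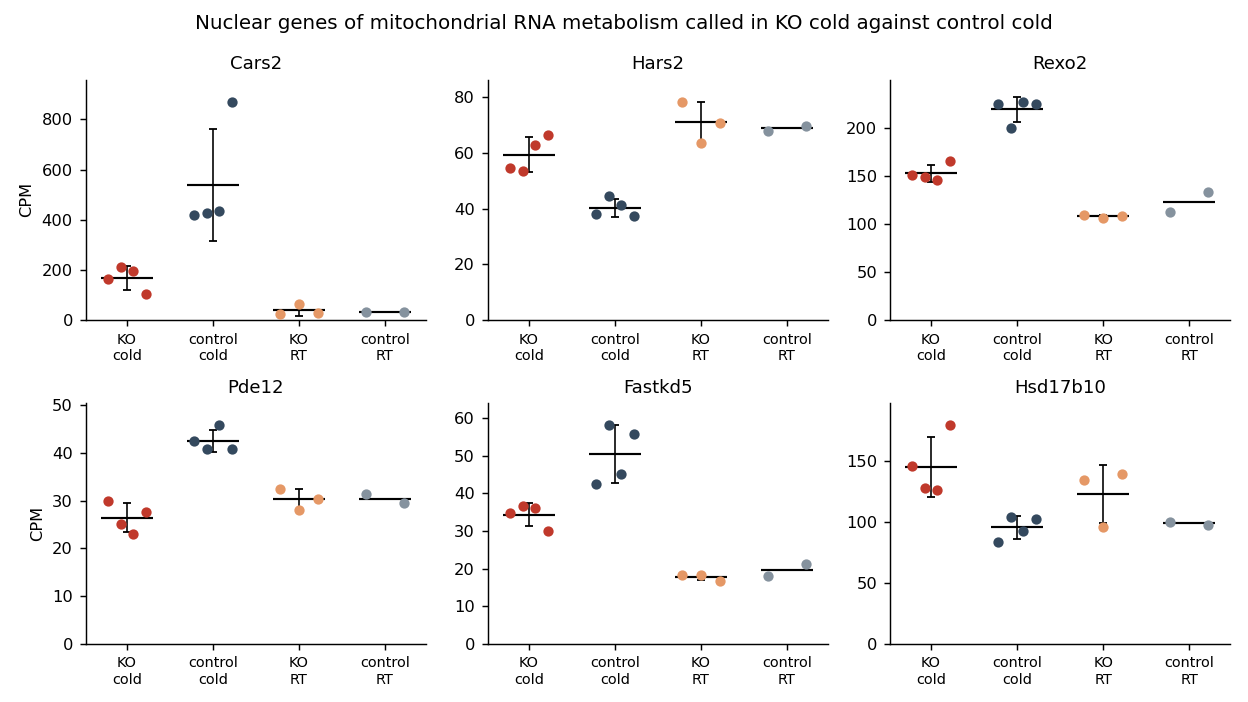
CPM (y axes, from 0) of the 6 nuclear genes of mitochondrial RNA metabolism that passed in KO cold against control cold, by group (x axis). Points are libraries, lines are means and error bars are SD in groups of 3 or more; Cars2 lies at 104 to 213 CPM in KO cold and 418 to 871 in control cold, and Hars2 and Hsd17b10 are the 2 that are higher in KO cold.

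With cold in control, 8 of 24 processing genes were higher and 0 lower, and 3 of 22 tRNA maturation genes were higher and 1 lower. Of 22 charging genes 3 were higher and 1 lower, and of 20 transcription and replication genes 2 were higher and 2 lower. Of 9 rRNA modification genes 1 was higher. Over all tested genes 12.7% were higher and 12.6% lower in that contrast. Besides Cars2, the genes named by smallest p included Fastkd5 (1.37 ± 0.19, adjusted p = 0.000123), the tRNA pseudouridine synthase Pus1 (1.22 ± 0.26, 0.00288; 0.0772 without control RT 1) and Mterf3, a repressor of mitochondrial transcription (0.96 ± 0.22, 0.00557). Rexo2 (0.84 ± 0.13, adjusted p = 2e-04) and Pde12 (0.48 ± 0.16, 0.0404) also rose. Hars2 (-0.77 ± 0.15, adjusted p = 0.00159) and the tRNA maturation gene Trit1 (-0.48 ± 0.16, 0.0345) fell. With cold in KO, 6 of 24 processing genes were higher, and 2 of 22 tRNA maturation genes were higher and 1 lower. Of 22 charging genes 2 were higher and 1 lower. Higher too were 2 of 20 transcription and replication genes and 1 of 9 rRNA modification genes. The background was 9.43% of all tested genes higher and 9.45% lower. The genes higher with cold in KO included Fastkd5 (0.95 ± 0.17, adjusted p = 0.00116), Rexo2 (0.50 ± 0.11, 0.00418) and the rRNA methyltransferase Mrm3 (1.19 ± 0.17, 0.000222). They also included the tRNA methyltransferase Nsun3, which acts on mt-Tm (0.67 ± 0.13, 0.00243), and the glycine synthetase Gars (0.94 ± 0.13, 0.000133). With cold in control Gars (0.84 ± 0.15, 0.000763), Nsun3 (0.55 ± 0.16, 0.0173) and Mrm3 (0.58 ± 0.20, 0.0448) were called higher too. That call of Mrm3 was lost with upper-quartile scaling (0.0902) and with the block (0.106), among other runs. The charging gene Iars2 fell with cold in KO (-0.34 ± 0.11, 0.0469).

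Of the 6 chromosome 1 copies, 0 passed in KO cold against control cold, where the background was 5.93%, and their median log2 fold change was 0.09. In KO cold against KO RT 0 of 6 passed, where it was 18.9%. With cold in control, Gm28438, the copy of mt-Nd3, was higher (0.61 ± 0.20, adjusted p = 0.0345), which was lost without control cold 1 (0.0559), control cold 2 (0.0824) or control RT 1 (0.289). Of the 7 genes lower in KO cold, mt-Rnr1 matched none of these 6 copies. The tRNA genes were left out of that alignment for their short length, so whether they have a copy was not tested.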

How the data were processed

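The deposited table gives raw whole-number counts per Ensembl gene, made by the authors before deposit. Build GRCm39, the aligner STAR (2.7.10b), the counter HTSeq (0.12.3), UMI-tools (1.1.2) and Trim Galore (0.6.7) are listed with limma and edgeR in the submitters' processing notes, with no parameters. Whether tags were collapsed by molecular identifier is not given in the sources used here, so the limit stated for genes at 0 covers counting error only. Of 55632 lines, 275 duplicates of another line were removed. All 13 libraries carry the label batch1.

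Here, R 4.3.3 and edgeR 4.0.16 were used. The filter filterByExpr at a minimum count of 10 left 11073 genes. After scaling by trimmed mean of M values (TMM), 1 quasi-likelihood model with the 4 group means as terms was fitted to all 13 libraries (common biological coefficient of variation 16.1%). Each of 5 contrasts was tested two-sided, and the p of edgeR's quasi-likelihood test was adjusted by Benjamini-Hochberg across the 11073 genes of a contrast. A bare p in parentheses beside a gene is an adjusted p of the same test under the named setting. CPM was computed from the deposited counts and scaled library sizes, and genes at adjusted p under 0.05 are called. DESeq2 1.42.0, other scalings, no filter, the replicate block, the compared groups alone and leaving out each library were alternatives, and scaling to mitochondrial protein-gene counts was added after seeing the data. No 2 replicates agreed within counting error (chi-square over its degrees of freedom, 2.03 to 7.19).

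Members were taken by chromosome name. The members and gene lists were chosen with earlier results of these data known. Values in every library are given for each member past the threshold in any contrast, both rRNA genes, each tested tRNA gene, mt-Nd1, mt-Cytb, mt-Co1, mt-Atp6 and protein genes with an unadjusted p under 0.05 in KO cold against control cold. In KO cold against control cold, up to 4 genes with the smallest p are named per list. For cold in control and for cold in KO, only some of the list genes that passed are named. Genes already named are followed into other contrasts. Order, strand and sequences come from GENCODE M21 (GRCm38), which is not the build of the counts, so no coordinates are given. Copies were aligned with Biopython 1.88.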

Additional observations from a re-analysis of the deposited data

How the results depend on the processing

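mt-Tc, mt-Ta, mt-Tq and mt-Tl1 were called lower in KO cold than in control cold under each alternative run. With 1 library left out, the number of mitochondrial genes called ran from 4 to 11 in KO cold against control cold, from 2 to 16 for cold in control and from 3 to 6 for cold in KO, and it stayed at 0 for KO RT against control RT and for the difference of cold responses. For cold in control, 13 genes were called, against 8 with upper-quartile scaling (which moved the median of all genes to -0.12), 8 with the replicate block, 6 with the compared groups alone and 7 scaled to mitochondrial protein counts, where mt-Nd1, mt-Nd2 and mt-Cytb turned to -0.02, -0.06 and -0.08. That last scaling left 3 of 5 calls for cold in KO. Without the filter on low counts, 3 mitochondrial genes passed in the difference of cold responses, where 133 of all 22904 genes passed. That run called 982 of the 22904 genes in KO cold against control cold and 50 in KO RT against control RT. Scaling also shifts all genes: over all tested genes, 270 were higher and 387 lower in KO cold against control cold, but 393 and 297 with upper-quartile scaling and 345 and 176 scaled to mitochondrial protein counts. For cold in control, 1401 were higher and 1392 lower, but 1071 and 1766 with upper-quartile scaling and 521 and 3048 scaled to mitochondrial protein counts. For cold in KO, 1044 and 1046 became 496 and 1727 scaled to mitochondrial protein counts. Scaling to those counts moved the median of all genes to 0.12 in KO cold against control cold, -0.39 for cold in control and -0.22 for cold in KO. The causes were not tested.

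As a percent of the counts outside the mitochondrial chromosome, the mitochondrial total averaged 12.2% in KO cold, 13.7% in control cold, 11.4% in KO RT and 11.4% in control RT, the protein genes 8.49% in KO cold, 8.84% in control cold, 7.85% in KO RT and 7.75% in control RT, and the rRNA genes 3.48% in KO RT. A smaller denominator gives these larger values. Replicate numbers are not stated to mark shared animals or days. Deviations of same-numbered libraries from their group means correlated at -0.23 to 0.33, with 3 of 16 pairs over 0.1. In groups this small such correlations cannot exclude shared animals or days, so whether the numbers pair the libraries stays undecided. With the numbers as a block, 6 genes were called in KO cold against control cold and 4 for cold in KO. The 17 genes that failed the filter, at 41 counts or fewer over 13 libraries, could not be compared between groups.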
